A study of Mus musculus with 12 samples.

Results

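Kdr, Etv2, Tal1, Lmo2, Gata1, Gata2, Runx1, Fli1, Gfi1b and Klf1 regulate the precursors of blood and endothelium. These 10 genes were taken by symbol from the transcript annotation of a mouse RNA-Seq experiment, each symbol matched 1 locus, and the 10 loci were followed among 80012 loci counted and 17922 loci tested. All 10 passed the filter on low values (a mean above 0.1 FPKM in a group), Fli1 and Gfi1b through the day 3 groups only. Poly(A) RNA was sequenced from 12 libraries of an Eomes-EGFP reporter ESC line on a C57BL/6 background, in which a green fluorescent protein cassette sits at the start site of the endogenous Eomes gene, and every group shares this allele. ESCs were undifferentiated cells at day 0, grown with serum and LIF on mouse embryonic fibroblasts (feeder cells). Eo+ and Eo− were the fluorescent and the non-fluorescent cells that FACS separated from embryoid bodies at day 3, which had formed in hanging drops in serum-containing medium. There were 4 libraries per group, numbered replicates 1, 2, 5 and 6, which the methods describe as separate differentiation sets. The sort was on Eomes, a T-box factor of the mesendoderm, and not on any of the 10 genes, and all 3 groups come from the same reporter line.

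Blood and endothelium arise close together from mesoderm that expresses the VEGF receptor Kdr. In such mesoderm the ETS factor Etv2 acts early, and the basic helix-loop-helix factor Tal1 (SCL) with its bridging partner Lmo2 and with GATA factors forms a complex at blood and endothelial genes. Runx1, Gfi1b, Gata1 and Klf1 act later, in blood stem and progenitor cells and in the red cell lineage, and Fli1 acts in endothelial, blood and megakaryocytic cells.

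Levels are given as CPM, the counts of a locus scaled to the TMM-adjusted total of its library, always in the order replicate 1, 2, 5 and 6. Changes are log2 fold changes from limma on voom-transformed counts with their standard error (SE), and a locus was called at a Benjamini-Hochberg adjusted p of at most 0.05 over the 17922 loci tested. Total locus counts ranged from 648413022 to 837308168 per library, so that 3 counts corresponded to at most 0.00467 CPM. All 6 mesendoderm markers (Eomes, T, Mixl1, Gsc, Lhx1 and Foxa2) rose in Eo+ vs Eo−, and 5 of 6 pluripotency markers fell. Eomes is the gene sorted on, so that its rise was set by the design. Replicate 1 stood apart for many of the genes described here, so that the levels of the 10 genes are shown per library. Other genes are given per library, by their range or by the mean of 4 libraries.

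The promoters are shown first because several of the results concern what is transcribed beside them. RefSeq promoter windows on GRCm38.p6, the build of the authors' files, run from 250 bases before to 50 bases after a start site, and 11 windows of 8 genes matched. Lmo2 and Fli1 had no window. The Kdr window, chr5:75978406-75978705 on the minus strand, is given with capitals for the 79 bases that lie between the 5′ end of the assembled Kdr transcripts and the 5′ end of a non-annotated transcript on the plus strand. The other windows are those that hold the letters GATAA, the core recognised by GATA factors, on either strand. Capitals there mark GATAA and also GGAAG, an ETS core, on either strand, and the matches do not overlap. They are Tal1 at its first start site (chr4:115056176-115056475, plus strand), Gfi1b (chr2:28621933-28622232, minus strand) and Klf1 (chr8:84901732-84902031, plus strand).
Kdr: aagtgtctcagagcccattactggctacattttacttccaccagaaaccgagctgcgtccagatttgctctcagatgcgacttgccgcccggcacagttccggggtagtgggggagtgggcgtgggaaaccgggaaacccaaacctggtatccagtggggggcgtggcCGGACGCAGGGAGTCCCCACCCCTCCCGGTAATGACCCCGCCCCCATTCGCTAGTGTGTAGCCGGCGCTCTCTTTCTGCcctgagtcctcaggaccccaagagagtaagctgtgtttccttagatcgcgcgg
Tal1: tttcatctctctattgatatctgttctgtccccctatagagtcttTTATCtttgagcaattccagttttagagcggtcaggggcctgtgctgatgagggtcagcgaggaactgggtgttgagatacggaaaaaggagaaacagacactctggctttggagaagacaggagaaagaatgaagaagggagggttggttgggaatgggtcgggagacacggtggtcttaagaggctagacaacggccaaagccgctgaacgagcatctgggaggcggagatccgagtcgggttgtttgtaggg
Gfi1b: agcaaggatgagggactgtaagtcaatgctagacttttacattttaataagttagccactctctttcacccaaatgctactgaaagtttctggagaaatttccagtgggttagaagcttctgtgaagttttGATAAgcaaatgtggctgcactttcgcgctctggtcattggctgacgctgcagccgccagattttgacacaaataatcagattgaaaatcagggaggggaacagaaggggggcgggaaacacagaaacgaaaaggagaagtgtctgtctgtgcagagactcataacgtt
Klf1: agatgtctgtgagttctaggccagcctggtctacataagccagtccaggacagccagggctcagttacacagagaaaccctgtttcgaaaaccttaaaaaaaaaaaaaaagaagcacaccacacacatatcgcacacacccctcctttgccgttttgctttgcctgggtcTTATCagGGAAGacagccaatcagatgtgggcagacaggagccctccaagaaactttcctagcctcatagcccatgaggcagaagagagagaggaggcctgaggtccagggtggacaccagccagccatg

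A GATAA match was present in 3 of the 11 windows, against 25.4% of all 32851 promoter windows. GGAAG was found in 6 of the 11 windows and in 71.4% of all windows, and the E-box CANNTG, the class of site bound by Tal1 with its helix-loop-helix partners, in 7 of 11 and in 72.3%. The RUNX core TGTGGT was present in 2 of 11 windows, against 16.8%. AGGTGT, a core of T-box factors such as Eomes, occurred in none of the 11 windows (0), against 13.7% of all windows. All were searched on both strands. Short matches of this kind describe letters in a window and are not binding sites.

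Kdr, Etv2, Tal1, Lmo2 and Gata2 exceeded their Eo− level in Eo+ cells, by 3.73-fold (Lmo2) to 8.70-fold (Kdr) of the mean, and Klf1 was 2.82-fold lower. Without Eo− replicate 1, the fold of the means was 15.2 rather than 8.70 for Kdr, 6.76 rather than 3.89 for Tal1 and 6.45 rather than 3.96 for Gata2, and Klf1 was 1.57-fold lower. Gata1 and Gfi1b were not called between the fractions. Runx1 and Fli1 were called as higher in Eo+ with the replicate number as a block, and not in the fit of all 12 libraries without it. In Eo+ vs ESC, 7 of the 10 genes were called, all of them higher (Kdr, Etv2, Tal1, Lmo2, Gata2, Fli1 and Gfi1b). Of all loci tested, 71.9% were called in this comparison and 35.8% were called as higher. In Eo− vs ESC, 5 of 10 were called, all higher (Kdr, Tal1, Lmo2, Fli1 and Gfi1b), where 62.2% of all loci were called and 30.9% called as higher. Both counts include Fli1 and Gfi1b, which passed the filter on low values through the day 3 groups only. Their calls against ESCs are therefore not independent of that filter. An alternative fit of every locus with at least 1 count also called both genes against ESCs. In Eo+ vs Eo−, 6 of 10 were called, where the background was 47.7%. Of these 5 were higher in Eo+, against a background of 23.0% called as higher. With the replicate number as a block on the 8 sorted libraries, 7 were called as higher and 1 as lower, where 57.2% of all loci were called. The methods place ESCs in the same differentiation sets. A block over all 12 libraries called 9 genes as higher and 1 as lower in Eo+ vs ESC, 7 as higher in Eo− vs ESC, and 7 as higher and 1 as lower in Eo+ vs Eo−, where 74.8%, 66.1% and 53.3% of all loci were called. The median log2 fold change of the 10 genes was 3.13, 1.75 and 1.61 in Eo+ vs ESC, Eo− vs ESC and Eo+ vs Eo−, and that of all loci tested 0.002, 0.016 and -0.015. Without replicate 1 of all groups, 6 genes were called as higher and 1 as lower in Eo+ vs ESC, where the call of Gata2 was lost (1.32, adjusted p = 0.101) and Klf1 was called as lower. In Eo− vs ESC 5 were then called as higher, and between the fractions 6 as higher and 1 as lower. The share of all loci called was then 67.2%, 55.8% and 41.3% in the 3 comparisons. In the same order of comparisons, the 2 sets of libraries were fully separate for 7, 6 and 2 of the 10 genes, where the share of all loci was 64.5%, 55.8% and 45.9%. The comparisons share groups and are therefore not independent of each other. In bulk samples, fewer cells of a type and less RNA per cell cannot be told apart.

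**Figure D1:**
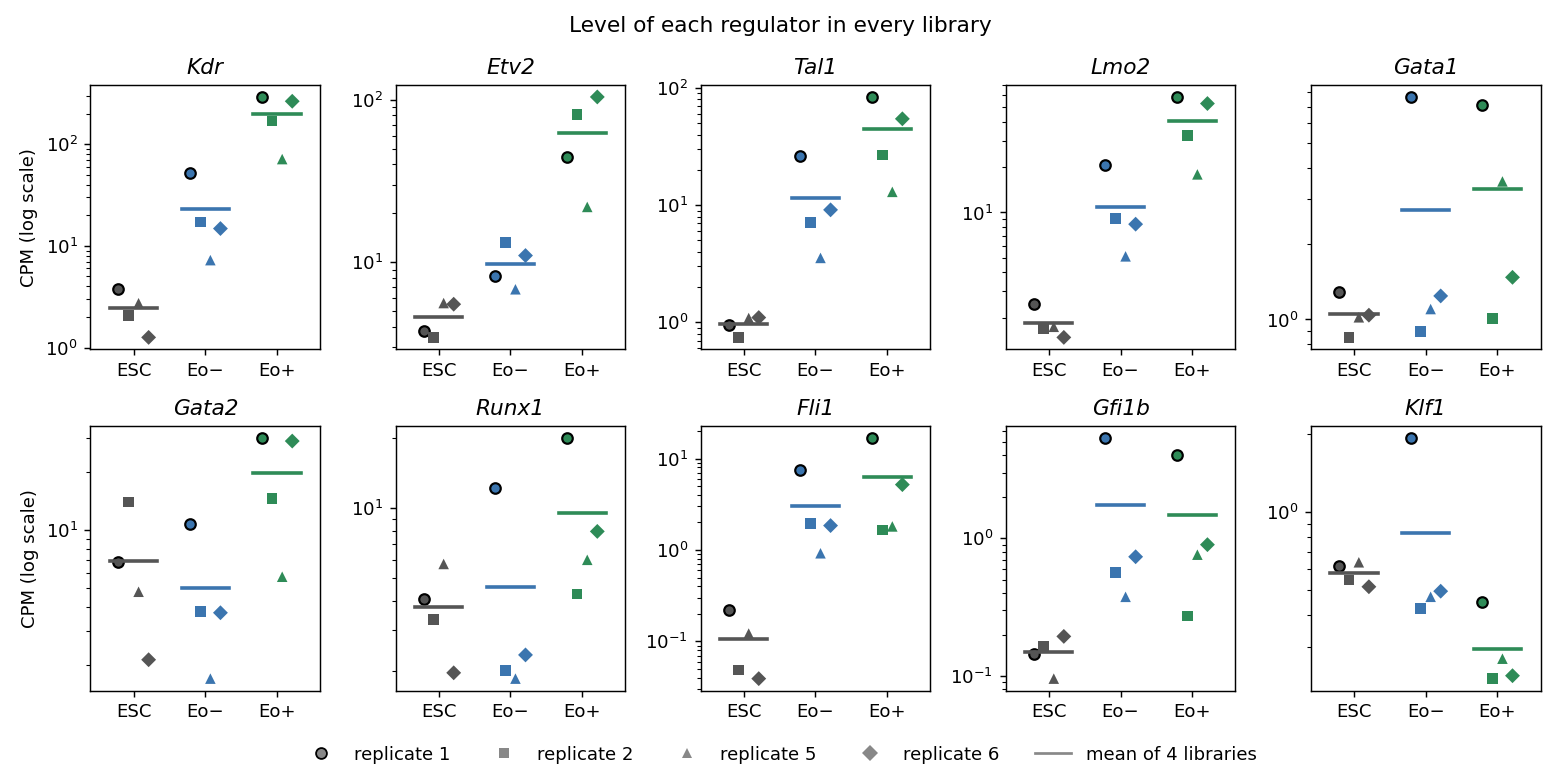
CPM of the 10 genes (log scale, one panel per gene) in ESC, Eo− and Eo+ libraries, with one symbol per replicate, black outlines for replicate 1 and lines at the mean of 4 libraries. Kdr and Etv2 separate Eo+ from Eo− without overlap. Replicate 1 is the highest Eo− library for all of the 10 genes but Etv2.

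Kdr (XLOC_055370, ENSMUSG00000062960) encodes the VEGF receptor that marks blood- and vessel-forming mesoderm, and lies at chr5:75932822-75978458 on the minus strand in mm10. It was measured at 3.74, 2.07, 2.73 and 1.26 CPM in ESCs, at 52.1, 17.1, 7.24 and 14.8 CPM in Eo− and at 291, 168, 71.3 and 264 CPM in Eo+ cells. The 3 groups did not overlap, and the lowest Eo+ library was above the highest Eo− library. Mean Kdr was 81.1-fold higher in Eo+ than in ESCs (log2 fold change 6.24 ± 0.82 SE, adjusted p = 1.15e-05) and 9.31-fold higher in Eo− than in ESCs (2.96 ± 0.88, adjusted p = 0.01). Between the fractions, Eo+ was 8.70-fold higher (3.28 ± 0.53, adjusted p = 0.000214), with a log2 difference of 2.48, 3.30, 3.30 and 4.15 within sets 1, 2, 5 and 6. These calls held when any single library was left out. Without Eo− replicate 1, mean Kdr was 5.33-fold higher in Eo− than in ESCs and 15.2-fold higher in Eo+ than in Eo−.

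A non-annotated locus, XLOC_053158, began 80 bases from the 5′ end of Kdr on the opposite strand (chr5:75978538-75993631), so that the start of both loci lies in the Kdr window printed above. Per length, its mean level in Eo+ was 0.113 FPKM, beside 27.2 FPKM for Kdr. It had 5, 2, 5 and 0 counts in ESCs, 43, 7, 0 and 6 in Eo− and 273, 206, 81 and 228 in Eo+ libraries. The Eo+ libraries lay above all others. With means of 0.00155 FPKM in ESCs and 0.00738 FPKM in Eo−, it passed the filter on low values through Eo+ alone, so that its levels are given with no test. In ESCs the mean of 3 counts per library was at the counting floor. Replicate 5 was the lowest Eo+ library for this locus, as for Kdr.

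Among the ligands and coreceptors of VEGF receptors, 3 of 7 rose and 1 fell in Eo+ vs Eo−, with a median log2 fold change of 0.84 (0 rather than 1 fell without replicate 1, and 4 rose and 2 fell with the replicate block). Vegfa, the main ligand of Kdr, was at a mean of 11.9 CPM in Eo− and 28.8 CPM in Eo+ (1.24 ± 0.27, adjusted p = 0.00183). The coreceptor Nrp1 was at 15.9, 3.56, 3.05 and 4.42 CPM in Eo− and 126, 39.0, 51.5 and 69.4 CPM in Eo+, with replicate 1 highest in both fractions (3.60 ± 0.54, adjusted p = 0.00012). Mean Nrp2 rose from 21.1 to 92.6 CPM (2.13 ± 0.47, adjusted p = 0.00227). Vegfd, a ligand of low level, fell by 0.55 ± 0.16 on the log2 scale (adjusted p = 0.0144). Flt1, the paralog of Kdr that also binds VEGF, was at 27.9, 19.3, 12.4 and 16.8 CPM in Eo− and 93.9, 95.3, 123 and 98.5 CPM in Eo+ (2.47 ± 0.19, adjusted p = 8.02e-07). Unlike Kdr, Flt1 was highest in Eo+ replicate 5. The lymphatic receptor Flt4 rose by much less (0.52 ± 0.13, adjusted p = 0.00572). Against ESCs, 1 of the 7 ligands and coreceptors rose (Vegfb, 0.89 ± 0.10, adjusted p = 5.24e-06) and 2 fell (Vegfa and Vegfc) in Eo−, and in Eo+ 3 rose and 1 fell.

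Etv2 (XLOC_064263, ENSMUSG00000006311; chr7:30633604-30636501, minus strand) is the ETS factor at the start of the blood and endothelial programme. Its level was 3.77, 3.45, 5.61 and 5.52 CPM in ESCs, 8.22, 13.2, 6.82 and 11.0 CPM in Eo− and 44.4, 81.4, 21.9 and 104 CPM in Eo+ cells. No library of one group overlapped another group, and replicate 1 was not the highest library in any of the 3 groups. Etv2 rose 13.7-fold in Eo+ vs ESC (3.58 ± 0.54, adjusted p = 4.28e-05) and 6.40-fold in Eo+ vs Eo− (2.49 ± 0.46, adjusted p = 0.000623). In Eo− vs ESC the difference was 1.09 ± 0.62 and was not called (adjusted p = 0.14). It was called when Eo+ replicate 5 was left out of the shared fit (adjusted p = 0.0235). With all 12 libraries, it was called by the edgeR quasi-likelihood test (1.10, adjusted p = 0.0228), by DESeq2 (1.05, adjusted p = 0.0191) and with the replicate block (1.11, adjusted p = 0.0167). Of 5 assembled Etv2 transcripts, 4 began between 30636111 and 30636501, that is upstream of the RefSeq window, and 1 began inside it at 30635852. Counts per locus do not separate these transcripts.

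Fli1 (XLOC_072313, ENSMUSG00000016087; chr9:32422204-32543280, minus strand), the other ETS factor, was low in ESCs, with 180, 37, 94 and 26 counts. Levels were 7.54, 1.94, 0.921 and 1.85 CPM in Eo− and 16.7, 1.65, 1.81 and 5.19 CPM in Eo+, and the highest value of either fraction was replicate 1. Both fractions were above every ESC library, and they overlapped with each other. Against ESCs, Fli1 rose in Eo+ (5.52 ± 1.27, adjusted p = 0.00138) and in Eo− (4.70 ± 1.29, adjusted p = 0.00604). Fli1 passed the filter on low values through the day 3 groups alone, so that these tests are not independent of that filter. The fold of the means was 58.9 in Eo+ (26.8 without Eo+ replicate 1 and 90.4 without ESC replicate 1) and 28.6 in Eo− (14.6 without Eo− replicate 1 and 43.8 without ESC replicate 1). Eo+ vs Eo− gave 0.82 ± 0.72 (adjusted p = 0.365). With the replicate number as a block on the sorted libraries, the difference was called (0.96 ± 0.23, adjusted p = 0.00993), with Eo+ higher in 3 of 4 sets and a log2 difference of -0.24 in set 2. Per length, Fli1 relative to Etv2 was higher in Eo−, where the FPKM ratio was 0.0598 to 0.406, than in ESCs, where it was 0.00314 to 0.0257. In Eo+ cells the ratio was 0.00895 to 0.166 and overlapped both, and these ratios were not tested.

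Tal1 (XLOC_048591, ENSMUSG00000028717; chr4:115056426-115071784, plus strand) is the helix-loop-helix factor required for all blood lineages. It was present at 0.945, 0.745, 1.09 and 1.10 CPM in ESCs, at 26.1, 7.11, 3.55 and 9.13 CPM in Eo− and at 83.9, 26.8, 13.0 and 54.6 CPM in Eo+ cells. Day 3 libraries all exceeded the ESC libraries, whereas Eo− replicate 1 lay within the range of Eo+. Tal1 rose 45.9-fold in Eo+ vs ESC (5.21 ± 0.92, adjusted p = 0.000156) and 11.8-fold in Eo− vs ESC (3.23 ± 0.99, adjusted p = 0.0114). Eo+ exceeded Eo− by 3.89-fold (1.99 ± 0.61, adjusted p = 0.0158). Within the sets the log2 difference was 1.68, 1.91, 1.87 and 2.58, so that the differences within sets varied less than the levels did. Without Eo− replicate 1, mean Tal1 in Eo− was 6.79-fold above ESCs, and Eo+ was 6.76-fold above Eo−. The call between the fractions was lost when Eo− replicate 5 was left out (1.56, adjusted p = 0.0565).

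Lmo2 (XLOC_038655, ENSMUSG00000032698; chr2:103957986-103981883, plus strand), the LIM-only protein that bridges Tal1 and GATA factors, was also higher at day 3. The ESC libraries held 2.48, 1.68, 1.74 and 1.48 CPM, the Eo− libraries 20.7, 9.15, 5.11 and 8.36 CPM and the Eo+ libraries 58.5, 32.5, 17.9 and 52.9 CPM. As for Tal1, replicate 1 was highest and replicate 5 lowest in both fractions, and Eo− replicate 1 overlapped Eo+. Lmo2 rose by 4.33 ± 0.57 (log2) in Eo+ vs ESC (adjusted p = 1.08e-05), 2.40 ± 0.62 in Eo− vs ESC (adjusted p = 0.00402) and 1.93 ± 0.41 in Eo+ vs Eo− (adjusted p = 0.00179), and all 3 calls held when any single library was left out. Per length, Lmo2 was above Tal1 in all 12 libraries, with an FPKM ratio of 3.91 to 7.67 in ESCs, 2.32 to 4.21 in Eo− and 2.04 to 4.03 in Eo+.

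Of the partners and cofactors of the SCL complex, of GATA and of RUNX factors, 9 of 11 had a locus (Cbfa2t3 and Zfpm1 were not analysed here), and 4 rose and 1 fell in Eo+ vs Eo−, with a median log2 fold change of 0.11. Ldb1, which binds Lmo2 and joins the complex to distant sites, had mean levels of 214, 185 and 184 CPM in ESC, Eo− and Eo+ libraries, and Eo+ vs Eo− gave -0.01 ± 0.10 (adjusted p = 0.937). The E protein Tcf12, a dimer partner of Tal1, rose from 57.7 CPM in Eo− to 104 CPM in Eo+ (0.85 ± 0.10, adjusted p = 1.23e-05), and Tcf3 did not pass the test (0.11 ± 0.08, adjusted p = 0.25). Cbfb, the partner of Runx1, rose by 0.47 ± 0.10 (adjusted p = 0.00228). Ssbp2, which stabilises Ldb1, fell by 0.94 ± 0.11 on the log2 scale (adjusted p = 1.70e-05). Of the 9, 7 rose and 1 fell in Eo+ vs ESC, and 6 rose and 1 fell in Eo− vs ESC (Runx1t1 in both, by 1.21 ± 0.24 and by 1.00 ± 0.24 lower on the log2 scale, adjusted p = 0.000512 and 0.00231). The block over all 12 libraries gave 7 and 2, and 6 and 2.

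Relatives of Tal1 and Lmo2 were also measured. Lyl1, the closest relative of Tal1, was at 4.80, 1.67, 0.572 and 1.34 CPM in Eo− and 5.76, 0.419, 0.841 and 1.16 CPM in Eo+, and gave -0.36 ± 0.69 between the fractions (adjusted p = 0.699). Both fractions were above ESCs, by 4.10 ± 1.06 in Eo− (adjusted p = 0.00415) and 3.75 ± 1.07 in Eo+ (adjusted p = 0.00642). Lyl1 passed the filter on low values through the day 3 groups alone, so that these tests against ESCs are not independent of that filter. Lmo1 was at 0.740 to 1.06 CPM in ESCs, at 0.871 to 1.09 CPM in Eo− and at 9.46 to 27.6 CPM in Eo+. It thus differed between the fractions by 4.28 ± 0.39 (adjusted p = 2.44e-06). Lmo4 was between 34.9 and 50.4 CPM in all day 3 libraries, with a difference of 0.19 ± 0.17 (adjusted p = 0.381; 0.19 and adjusted p = 0.0262 with the replicate block).

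Gata2 (XLOC_057881, ENSMUSG00000015053; chr6:88193891-88207030, plus strand) acts in blood stem and progenitor cells and in endothelium. ESC libraries held 6.80, 14.0, 4.79 and 2.13 CPM, Eo− libraries 10.8, 3.78, 1.70 and 3.73 CPM, and Eo+ libraries 29.9, 14.6, 5.73 and 28.9 CPM. All 3 groups overlapped, and the ESC libraries spread 6.55-fold. Gata2 was higher in Eo+ than in Eo− in all 4 sets, by a log2 difference of 1.47, 1.95, 1.75 and 2.96 (2.01 ± 0.66, adjusted p = 0.0226). The call was lost when any of Eo− replicates 2, 5 and 6 or Eo+ replicates 1 and 6 was left out (largest adjusted p = 0.0762). Eo+ vs ESC gave 1.53 ± 0.63 (adjusted p = 0.0421), and this call was lost without ESC replicate 1, 5 or 6, Eo− replicate 2 or 6, or Eo+ replicate 1, 2 or 6 (largest adjusted p = 0.135) and by DESeq2 (1.47, adjusted p = 0.0579). Eo− vs ESC gave -0.48 ± 0.75 (adjusted p = 0.592). A non-annotated locus that begins 3158 bases from the first Gata2 start on the opposite strand, XLOC_059893, had 77, 25, 41 and 34 counts in ESCs, 135, 67, 13 and 35 in Eo− and 365, 132, 76 and 214 in Eo+ libraries. It was below the filter on low values.

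Gata1 (XLOC_076607, ENSMUSG00000031162; chrX:7959260-7978071, minus strand) replaces Gata2 during red cell maturation. Its level was 1.29, 0.849, 1.02 and 1.04 CPM in ESCs, 7.64, 0.895, 1.10 and 1.24 CPM in Eo− and 7.11, 1.01, 3.53 and 1.47 CPM in Eo+ libraries. Except in replicate 1 of both fractions and in Eo+ replicate 5, day 3 libraries were at 0.895 to 1.47 CPM, beside 0.849 to 1.29 CPM in ESCs. Without a block none of the 3 comparisons was called. The difference was 1.26 ± 0.70 in Eo+ vs ESC (adjusted p = 0.12), 0.77 ± 0.72 in Eo− vs ESC (adjusted p = 0.364) and 0.49 ± 0.66 in Eo+ vs Eo− (adjusted p = 0.562). Eo+ vs ESC was called when Eo− replicate 1 was left out (1.27, adjusted p = 0.039) or Eo+ replicate 2 (1.72, adjusted p = 0.0358). With the replicate block over all 12 libraries, Gata1 was called as higher in Eo+ vs ESC (1.50, adjusted p = 0.00379) and in Eo− vs ESC (1.07, adjusted p = 0.0289). Per length, Gata1 was below Gata2 in every library, with an FPKM ratio of 0.0705 to 0.566 in ESCs, 0.274 to 0.821 in Eo− and 0.0590 to 0.714 in Eo+. The highest ratios were those of Eo− replicate 1 and 5 and Eo+ replicate 5.

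Gata4 and Gata6, the GATA paralogs of heart and endoderm, rose in Eo+ vs Eo−. Gata4 was at 91.2 to 184 CPM in Eo+ and 2.51 to 10.1 CPM in Eo− (4.78 ± 0.34, adjusted p = 4.04e-07), and Gata6 at 72.6 to 104 CPM in Eo+ and 1.62 to 5.55 CPM in Eo− (4.90 ± 0.28, adjusted p = 7.58e-08). Gata3 rose from a mean of 1.79 to 7.71 CPM (2.19 ± 0.31, adjusted p = 8.88e-05). Over all 19 paralogs of the 10 genes, 17 were tested, of which 7 rose and 2 fell in Eo+ vs Eo− (10 and 2 with the replicate block), with a median log2 fold change of 0.38. The 2 that fell were Klf2 (from 56.2 to 9.90 CPM, by 2.64 ± 0.32 on the log2 scale, adjusted p = 2.58e-05) and Klf3 (by 0.53 ± 0.11, adjusted p = 0.00124). Of the 17, 12 rose and 4 fell in Eo+ vs ESC, and 7 rose and 5 fell in Eo− vs ESC (11 and 5 with the block over all 12 libraries).

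Runx1 (XLOC_029389, ENSMUSG00000022952; chr16:92601466-92826149, minus strand) is needed for blood cells to emerge from endothelium. It was measured at 4.06, 3.34, 5.76 and 1.97 CPM in ESCs, 12.2, 2.02, 1.86 and 2.35 CPM in Eo− and 19.9, 4.29, 6.00 and 7.94 CPM in Eo+ libraries. Eo− replicates 2, 5 and 6 were at the lower end of the ESC range or just under it, and Eo− replicate 1 was above all ESC libraries. Eo+ was higher than Eo− in 4 of 4 sets, by a log2 difference of 0.71, 1.09, 1.69 and 1.76. The fit without a block gave 1.29 ± 0.58 (adjusted p = 0.0809), and the fit with the replicate block on the sorted libraries called it (1.15 ± 0.19, adjusted p = 0.00192). Without Eo− replicate 1 the value was 1.96 (adjusted p = 0.00785), and without Eo+ replicate 2 it was 1.62 (adjusted p = 0.0369). Eo+ vs ESC gave 1.17 ± 0.58 (adjusted p = 0.0822), and was called without Eo− replicate 1 (adjusted p = 0.0274) or Eo+ replicate 2 (adjusted p = 0.0325), and with the replicate block over all 12 libraries (1.36, adjusted p = 0.00475). Eo− vs ESC gave -0.12 ± 0.63 (adjusted p = 0.877).

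Kdr, Etv2, Lmo2, Gata2 and Runx1 were above 1 CPM in every ESC library, and these libraries also held markers of fibroblasts and leukocytes. Of 12 fibroblast feeder markers, 11 were tested, of which 0 rose and 10 fell from ESC to Eo+, and 1 rose (Thy1, 0.62 ± 0.20, adjusted p = 0.0149) and 9 fell from ESC to Eo−. Their summed level ranged over 124 to 323, 32.2 to 42.7 and 38.7 to 76.7 CPM in ESC, Eo− and Eo+. Col1a1, a collagen of fibroblasts, was at 93.0, 52.7, 77.7 and 31.8 CPM in ESCs and at 1.42 to 4.92 CPM in all day 3 libraries. Of 12 macrophage, mast cell and leukocyte markers, 7 were tested, of which 5 fell from ESC to Eo+ and 6 from ESC to Eo−, with a summed level of 258 to 304, 218 to 247 and 195 to 219 CPM. Most of that sum was Fcer1g (means of 213, 214 and 200.1 CPM). The mast cell and basophil protease Mcpt8 was at 6.49, 1.87, 2.47 and 2.02 CPM in ESCs and at 0 to 0.00539 CPM at day 3, and the leukocyte gene Laptm5 at 26.4 to 39.3 CPM in ESCs and 0.581 to 7.19 CPM at day 3. Among ESC libraries, Kdr, Lmo2 and Fli1 had the order of Col1a1, with replicate 1 highest, then 5, 2 and 6. ESC replicate 6 also had the lowest Gata2, Runx1 and Klf1, whereas ESC replicate 1, with the highest Col1a1 and Mcpt8, was highest for none of these. For Etv2, Tal1, Gata1 and Gfi1b, ESC replicate 6 was not the lowest. The part of fibroblasts and leukocytes in the ESC levels of the 10 genes was not tested.

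Gfi1b (XLOC_040474, ENSMUSG00000026815; chr2:28609450-28621982, minus strand), a repressor of red cell and megakaryocyte precursors, was low in all groups. It was at 0.145, 0.164, 0.0957 and 0.194 CPM in ESCs, 5.34, 0.567, 0.376 and 0.735 CPM in Eo− and 4.05, 0.272, 0.761 and 0.900 CPM in Eo+ libraries. Every day 3 library exceeded every ESC library, and the 2 fractions overlapped. Against ESCs, Gfi1b rose in Eo+ (2.69 ± 1.07, adjusted p = 0.0364) and in Eo− (2.75 ± 1.06, adjusted p = 0.0371). Gfi1b passed the filter on low values through the day 3 groups alone, so that these tests are not independent of that filter. The fold of the means was 9.97 in Eo+ (4.30 without Eo+ replicate 1) and 11.7 in Eo− (3.73 without Eo− replicate 1). Each call was lost when any one ESC library was left out, and when replicate 1 of the day 3 group was left out (adjusted p up to 0.0846 and 0.0861). When replicate 1 of all 3 groups was left out, both were called (1.97, adjusted p = 0.00731, and 1.91, adjusted p = 0.0112). Eo+ vs Eo− gave -0.06 ± 0.81 (adjusted p = 0.959), with Eo+ higher in 2 of 4 sets. A short transcript on the opposite strand, XLOC_037576 (chr2:28620740-28622217), shares 134 exon bases with Gfi1b and ends inside the Gfi1b window printed above. It had 7 to 23 counts in ESCs, 47 to 120 in Eo− and 34 to 66 in Eo+ libraries, and it was outside the classes tested.

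Klf1 (XLOC_067672, ENSMUSG00000054191; chr8:84901928-84905295, plus strand), the erythroid Krüppel-like factor that activates globin genes, was lowest in Eo+. Its values were 0.620, 0.545, 0.638 and 0.513 CPM in ESCs, 1.93, 0.422, 0.469 and 0.493 CPM in Eo− and 0.446, 0.226, 0.270 and 0.232 CPM in Eo+. Every Eo+ library was below every ESC library, and Eo+ was below Eo− in all 4 sets, by a log2 difference of -2.11, -0.90, -0.80 and -1.09. Klf1 fell in Eo+ vs Eo− by 1.23 ± 0.45 on the log2 scale (adjusted p = 0.0385). This call was lost without Eo+ replicate 2 (-1.11, adjusted p = 0.091), 5 (-1.20, adjusted p = 0.0711) or 6 (-1.13, adjusted p = 0.0876). Eo+ vs ESC gave -1.02 ± 0.46 (adjusted p = 0.0602), which was called without replicate 1 of all groups (-1.21, adjusted p = 0.00113), without Eo− replicate 1 (adjusted p = 0.00184) and without Eo+ replicate 1 (adjusted p = 0.0438), and with the replicate block over all 12 libraries (-0.98, adjusted p = 0.0196). Eo− vs ESC gave 0.20 ± 0.41 (adjusted p = 0.679).

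**Figure D2:**
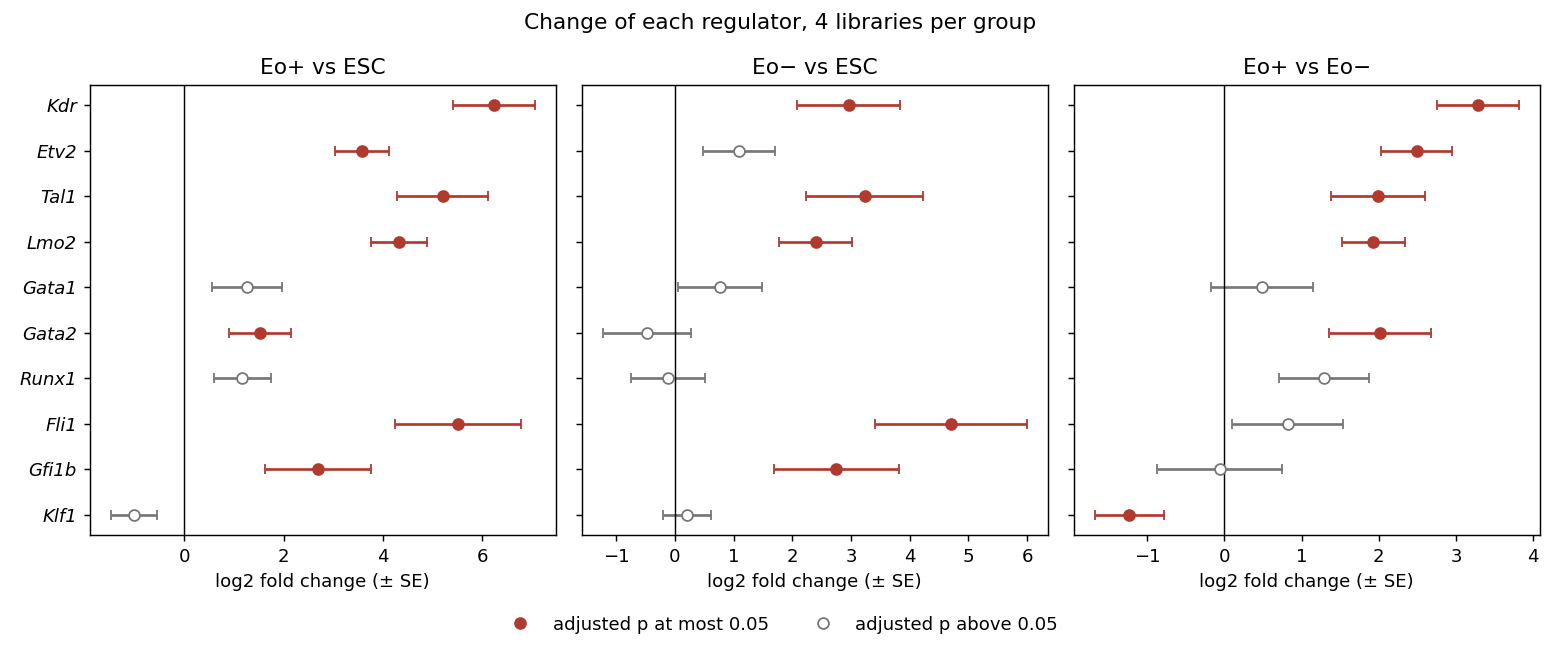
Log2 fold change with its SE (x axis) of the 10 genes in Eo+ vs ESC, Eo− vs ESC and Eo+ vs Eo−, 4 libraries per group, with filled points for an adjusted p of at most 0.05. In Eo+ vs Eo−, Kdr has the largest value (3.28) and Klf1 is the one gene called as lower (-1.23).

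On a scale that accounts for exon length, Etv2 led in every group. In Eo+ the mean FPKM fell from Etv2 (36.5 ± 20.8 SD) over Kdr (27.2 ± 13.6), Lmo2 (17.9 ± 8.21), Tal1 (6.74 ± 4.76) and Gata2 (5.90 ± 3.47) to Fli1 (1.64 ± 1.84), Gata1 (1.15 ± 0.971), Gfi1b (0.822 ± 0.947), Runx1 (0.713 ± 0.530) and Klf1 (0.192 ± 0.0688). Each neighbour in this order overlapped the next over the 4 libraries, except that Runx1 and Klf1 did not. In Eo− the order began with Etv2 (5.86 ± 1.64), Lmo2 (4.96 ± 3.28) and Kdr (3.25 ± 2.95) and ended with Runx1 (0.358 ± 0.404), and all neighbours overlapped. In ESCs Etv2 (2.61 ± 0.668) and Gata2 (2.00 ± 1.43) led, and Gfi1b (0.0797 ± 0.0218) and Fli1 (0.0271 ± 0.0212) were last.

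As a description over libraries that share groups and sets, Pearson's r of log2(CPM + 0.5) was 0.994 for Kdr with Lmo2, 0.974 for Kdr with Tal1, 0.989 for Tal1 with Lmo2 and 0.914 for Kdr with Etv2. Among the 10 genes, Gata1 was nearest to Gfi1b (0.920), and Etv2 had 0.245 with Gata1 and -0.535 with Klf1. Other genes were ranked in a pool of 13353 tested loci with a gene symbol and a mean of at least 1 CPM in a group. The 10 genes themselves were left out of this pool. In it, the 3 most like Kdr were Klhl6 (r = 0.996), Vgll4 (0.994) and Dock8 (0.994). Klhl6 was also the locus of this pool most like Lmo2 (0.990). It was at 0.160 to 0.944 CPM in ESCs, 1.67 to 9.50 CPM in Eo− and 12.2 to 38.6 CPM in Eo+. Etv2 was nearest to Cd160 (0.987), Maged1 (0.984) and Tns4 (0.984), and Tal1 to Hspa12b (0.989), Zc3hav1l (0.985) and a locus that joins Bbs12, Fgf2 and Gm43439 (0.977). Lmo2 was further near Hspa12b (0.988) and 4930581F22Rik (0.987). For Fli1 the nearest were Kcne3 (0.990), the endothelial factor Sox7 (0.984) and Grap (0.981), and for Gfi1b they were Itga2b (0.981), which encodes the megakaryocyte integrin CD41, Nfe2 (0.974), a factor of red cells and megakaryocytes, and F2rl3 (0.974). Gata1 (Adgrf5 0.953, Gab2 0.943 and Nrip3 0.930), Gata2 (Ripk3 0.955, Sh2b3 0.936 and Nrp2 0.928), Runx1 (Hoxb3 0.934, Hey2 0.919 and Unc5c 0.913) and Klf1 (Cited4 0.923, a locus joining Gm28230, Hoxd3 and Hoxd4 0.901, and Hoxd8 0.899) had looser neighbours.

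Genes that act upstream in mesoderm were compared next. Of 16 such genes, 14 were tested (Foxf1 and Foxc2 were not analysed here), and 12 rose and 0 fell in Eo+ vs Eo− (12 and 1 with the replicate block), with a median log2 fold change of 1.81. Mesp1, a factor of early cardiovascular mesoderm, was at 6.82, 8.99, 1.38 and 6.05 CPM in Eo− and 89.3, 213, 48.7 and 186 CPM in Eo+ (4.57 ± 0.63, adjusted p = 6.60e-05). Its highest Eo+ library was replicate 2 and its lowest replicate 5. Bmp4, a signal that induces Kdr-positive mesoderm, was at 19.9, 10.8, 8.43 and 9.71 CPM in Eo− and 94.6, 26.3, 18.1 and 53.5 CPM in Eo+ (1.77 ± 0.48, adjusted p = 0.00865). Aplnr rose from a mean of 42.5 to 288 CPM (2.75 ± 0.30, adjusted p = 9.28e-06), and Hhex, a homeobox gene of endothelial precursors and endoderm, from 9.31 to 49.8 CPM (2.49 ± 0.22, adjusted p = 1.94e-06). Cdx2 gave -1.14 ± 0.57 (adjusted p = 0.116) and was called as lower with the replicate block (-1.24, adjusted p = 0.00158). Cdx4 was not called (-0.66 ± 0.63, adjusted p = 0.408). All 8 cardiac mesoderm markers tested, of 10, rose in Eo+ vs Eo−, with a median of 3.75. Against ESCs, 9 upstream mesoderm genes rose and 1 fell in Eo+, and 6 rose and 2 fell in Eo− (2 and 2 without replicate 1 of all groups).

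Endothelial genes were compared as a list. Of 20 such genes 19 were tested, and in Eo+ vs Eo− 0 rose and 6 fell (Pecam1, Cldn5, Plvap, Tie1, Cd34 and Dll4), with a median log2 fold change of -0.79. Without replicate 1 of all groups 0 rose and 10 fell, and with the replicate block 1 rose (Sox7) and 9 fell. Over all loci tested, 8543 of 17922 (47.7%) were called in this comparison in either direction, of which 4126 were higher in Eo+ and the rest lower. Cldn5, a tight junction protein of vessels, was at 5.72, 4.35, 2.25 and 2.69 CPM in Eo− and 0.860, 0.211, 0.561 and 0.308 CPM in Eo+, and fell by 3.06 ± 0.40 on the log2 scale (adjusted p = 4.30e-05). Pecam1, an adhesion molecule of endothelium that ESCs also express (29.3 to 55.8 CPM), was at 31.2, 14.5, 9.18 and 11.3 CPM in Eo− and 8.78, 0.864, 1.95 and 1.19 CPM in Eo+, and fell by 2.84 ± 0.62 (adjusted p = 0.00203). Tie1, a receptor of endothelial cells, was at 28.2, 6.42, 2.17 and 4.54 CPM in Eo− and 6.68, 0.290, 0.867 and 0.760 CPM in Eo+, and fell by 2.63 ± 0.88 (adjusted p = 0.0241). In each of the 4 sets Tie1 was lower in Eo+ than in Eo−, whereas Kdr was higher. Cdh5, the junctional cadherin of endothelium, was at 39.4, 6.53, 2.85 and 6.23 CPM in Eo− and 17.1, 1.33, 2.83 and 3.30 CPM in Eo+, and gave -1.13 ± 0.79 (adjusted p = 0.254; -1.15 and adjusted p = 0.00603 with the replicate block). Sox7, an endothelial factor of earlier cells, gave 0.87 ± 0.65 (adjusted p = 0.284; 0.89 and adjusted p = 0.00384 with the replicate block). The ETS paralog Erg was at 6.76, 1.73, 0.800 and 1.48 CPM in Eo− and 7.13, 0.362, 1.08 and 1.23 CPM in Eo+ (-0.51 ± 0.75, adjusted p = 0.596).

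Against ESCs, 9 endothelial genes rose and 3 fell in Eo−, and 5 rose and 5 fell in Eo+ (9 and 4, and 4 and 8, without replicate 1 of all groups). Cdh5 rose in Eo− by 4.75 ± 1.17 (adjusted p = 0.00299) and in Eo+ by 3.62 ± 1.22 (adjusted p = 0.0165) from 0.187 to 0.514 CPM in ESCs. Icam2 likewise rose by 2.98 ± 0.76 (adjusted p = 0.00373) and by 2.04 ± 0.80 (adjusted p = 0.0332). Unlike Icam2, Cdh5 passed the filter on low values through the day 3 groups alone, so that its tests against ESCs are not independent of that filter.

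**Figure D3:**
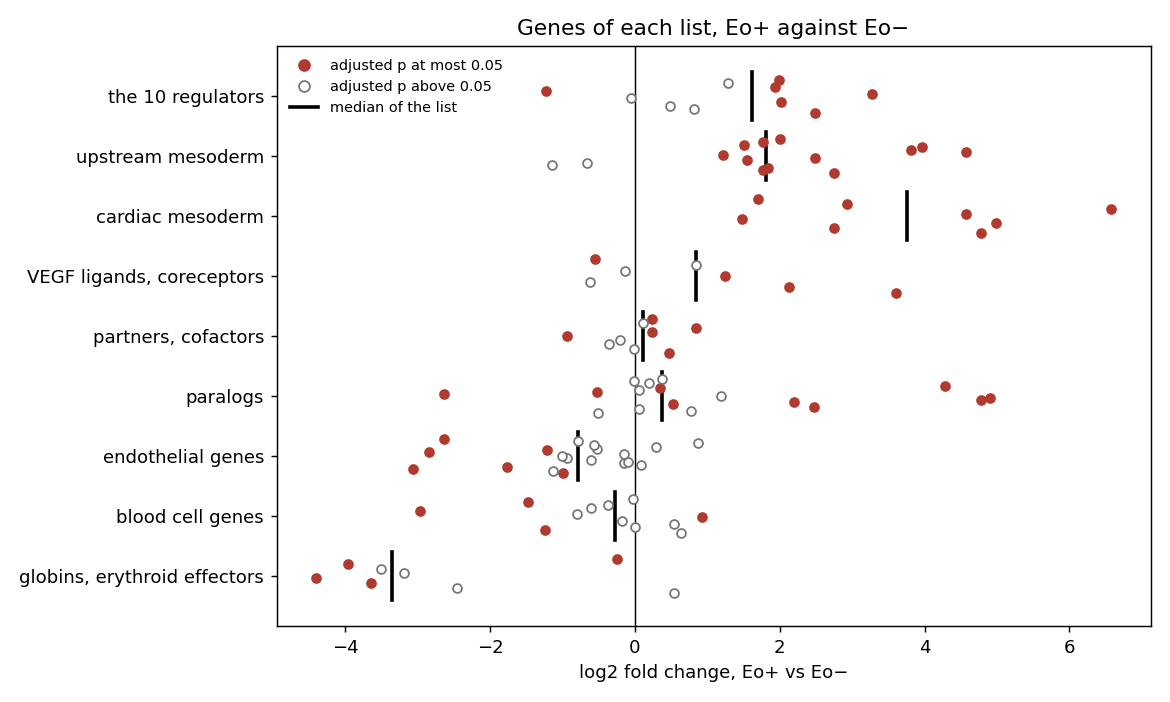
Log2 fold change in Eo+ vs Eo− (x axis) of each tested gene of 9 lists, with filled points for an adjusted p of at most 0.05 and a bar at the median of the list. Medians are 1.61 for the 10 regulators and 1.81 for upstream mesoderm genes, and -0.79 for endothelial genes and -3.35 for globins and erythroid effectors. Cardiac mesoderm markers and upstream mesoderm genes both hold Mesp1, and cardiac markers and paralogs both hold Gata4.

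Blood cell genes moved in both directions. Of 14, 12 were tested, and 1 rose (Kit) and 3 fell (Myb, Coro1a and Vav1) in Eo+ vs Eo−, with a median of -0.27 (3 and 5 with the replicate block). Kit, the stem cell factor receptor, rose from 25.9 to 48.5 CPM (0.93 ± 0.23, adjusted p = 0.00488). Myb, a factor of definitive blood progenitors, was at 26.7 to 41.5 CPM in Eo− and 2.64 to 7.27 CPM in Eo+, and fell by 2.97 ± 0.27 on the log2 scale (adjusted p = 2.54e-06). Itga2b was at 19.7, 3.06, 1.59 and 2.97 CPM in Eo− and 12.2, 1.79, 2.82 and 2.96 CPM in Eo+ (-0.18 ± 0.69, adjusted p = 0.851). Ptprc (CD45), the marker of all white blood cells, was at most 0.0626 CPM in any day 3 library and 0.221 to 0.369 CPM in ESCs. Against ESCs, 3 blood cell genes rose and 4 fell in Eo+, and 5 rose and 2 fell in Eo− (6 and 4, and 8 and 2, with the block over all 12 libraries).

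Embryonic globins and erythroid effectors include known targets of Gata1 and Klf1. Hbb-bh1, a globin of primitive red cells, was at 73.4, 1.50, 1.86 and 2.63 CPM in Eo− and 7.40, 0.0517, 1.04 and 0.204 CPM in Eo+, beside at most 0.0211 CPM in ESCs. Hba-x, the embryonic alpha-type globin, was at 16.2, 0.758, 0.321 and 1.14 CPM in Eo− and at 0.265, 0.0543, 0.0548 and 0.0280 CPM in Eo+. Every Eo− library of Hba-x lay above every Eo+ library, and it fell by 4.40 ± 1.43 in Eo+ vs Eo− (adjusted p = 0.0216). The difference of Hbb-bh1 was not called (-3.19 ± 1.51, adjusted p = 0.0975), but was with the replicate block (-3.07, adjusted p = 0.00057) and without replicate 1 of all groups (-3.14, adjusted p = 0.00815). Of 11 genes, 8 were tested, of which 0 rose and 4 fell in Eo+ vs Eo− (0 and 7 without replicate 1 of all groups, and 0 and 7 with the replicate block), with a median of -3.35. In Eo− vs ESC 4 rose and 1 fell, and in Eo+ vs ESC 1 rose and 1 fell (3 and 2 without replicate 1 of all groups, and 3 and 1 with the block over all 12 libraries).

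Replicate 1 was compared with the mean of replicates 2, 5 and 6 of its group, as a description. In Eo−, replicate 1 was the highest library for 9 of the 10 genes, all but Etv2, and at least 2-fold above the mean of the others for those 9. Over all loci tested the same held for 31.1% (highest) and 3.79% (at least 2-fold). The ratio was 9.55 for Gfi1b, 7.08 for Gata1, 5.87 for Runx1, 4.80 for Fli1, 4.19 for Klf1, 3.99 for Kdr, 3.96 for Tal1, 3.51 for Gata2 and 2.75 for Lmo2, beside 0.793 for Etv2. Eo+ replicate 1 was highest for 9 of the 10 genes and at least 2-fold above the others for 5, where 25.9% and 3.59% of all loci were so. There the ratio was 6.28 for Gfi1b, 5.78 for Fli1, 3.54 for Gata1, 3.28 for Runx1 and 2.67 for Tal1, and 0.644 for Etv2. In ESCs the ratio reached 3.14 for Fli1, whose counts there were low, and was at most 1.86 for the other 9 genes.

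Other lists were compared in the same way. In Eo− replicate 1 the ratio had a median of 15.1 over globins and erythroid effectors, 2.53 over endothelial genes and 1.83 over blood cell genes, against 0.993 over all loci tested. It was 2.15 over trophoblast markers, 1.84 over cardiac mesoderm markers, 1.73 over paralogs of the 10 genes and 1.64 over upstream mesoderm genes. The ratio was 7.58 for Cdh5, 6.44 for Tie1 and 7.74 for Itga2b. Mesendoderm markers had a median of 1.24 and pluripotency markers of 1.12. In Eo+ replicate 1 the median was 6.37 over globins and erythroid effectors, 2.59 over endothelial genes and 1.74 over blood cell genes, against 0.987 over all loci tested. It was 1.62 over cardiac mesoderm markers, 1.40 over paralogs of the 10 genes and 1.28 over trophoblast markers. Medians below 1 were found there for upstream mesoderm genes (0.915), pluripotency markers (0.769) and mesendoderm markers (0.706), and for macrophage, mast cell and leukocyte markers (0.989). Visceral endoderm markers were higher in replicate 1 of both fractions, with a median ratio of 3.62 in Eo− and 3.25 in Eo+, and their summed level was 6.48 to 11.3 CPM in ESCs, 9.74 to 27.0 CPM in Eo− and 49.0 to 159.6 CPM in Eo+. In Eo+ cells Ttr, a transport protein of visceral endoderm, was at 22.9, 0.656, 11.7 and 3.52 CPM. Of 10 such markers 7 rose in Eo+ vs Eo−, and replicates 1 and 5, which had the most Ttr in Eo+, also had the most Gata1 and Klf1. For Kdr, Etv2, Tal1, Lmo2 and Gata2, however, replicate 5 was the lowest Eo+ library. Of 10 trophoblast markers, 7 were tested, of which 2 rose (Eomes and Hand1) and 2 fell in Eo+ vs Eo−. Tpbpa, a defining gene of the placenta's spongiotrophoblast, was at or near 0 in all libraries. The summed level of the trophoblast list was 94.7 to 118, 131 to 206 and 476 to 689 CPM in ESC, Eo− and Eo+. Eomes, the gene sorted on, is a member of that list and was at 446 to 641 CPM in Eo+. The part of these cell types in the levels of the 10 genes was not tested.

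**Figure D4:**
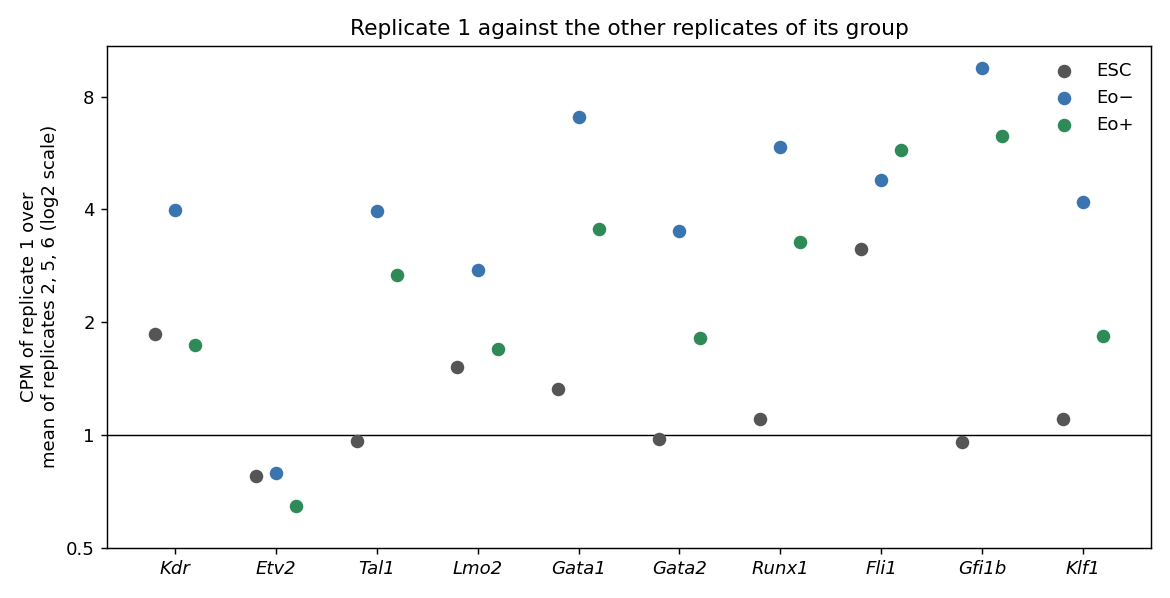
CPM of replicate 1 divided by the mean CPM of replicates 2, 5 and 6 of the same group (log2 scale) for each of the 10 genes in ESC, Eo− and Eo+. Etv2 lies below 1 in all groups, and Gfi1b reaches 9.55 in Eo− and 6.28 in Eo+.

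Opposite-strand loci overlap several of the genes, and the counting used strand, so that their reads were counted apart. XLOC_070386 overlaps the 5′ part of Fli1 and had 5, 1, 0 and 7 counts in ESCs, 74, 19, 4 and 2 in Eo− and 165, 23, 8 and 34 in Eo+ libraries, with replicate 1 highest in both fractions, as for Fli1. XLOC_051164 lies within the 3′ part of Tal1 and had 0 to 2 counts in ESCs and 0 to 29 at day 3. XLOC_074282, which spans Gata1, was tested and was called in none of the comparisons (0.25 ± 0.41 in Eo+ vs Eo−, adjusted p = 0.634). Gm26626, a lncRNA inside Runx1, had at most 9 counts in any library.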

How the data were processed

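Whole-number counts per merged locus were deposited by the authors for 12 poly(A) RNA libraries (4 per group). Per the methods and labels, reads were mapped to mm10 with STAR, transcripts were assembled and merged with Cufflinks and Cuffmerge 2.2.1 over Ensembl annotation, and stranded reads were counted in union mode with HTSeq 0.6.1. STAR is named with different versions in the sources, and the labels give 2.0.4. Reads that matched several loci were not counted, which lowers genes with near-identical copies. A second deposited table holds a scaled signal per locus, each library's counts divided by 1 constant by the authors. It served only to define a set of 22187 loci for an alternative filter.

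From the counts, loci were kept at a mean above 0.1 FPKM in at least 1 group and when protein-coding (14216), annotated lncRNA (993) or non-annotated multi-exon (2713). Some genes passed this filter through the day 3 groups alone, so that their tests against ESCs are not independent of it. FPKM used summed exon length and library totals. Tests used limma 3.58.1 with voom and edgeR 4.0.16 TMM scaling in R 4.3.3, with 1 mean per group over all 12 libraries, and Benjamini-Hochberg adjustment over 17922 loci. The fits were checked on simulated counts. Alternatives were edgeR's quasi-likelihood test, DESeq2 1.42.0, other scalings, filters and weights, a replicate block, and leaving out libraries. Calls were made at an adjusted p of at most 0.05.

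The replicate numbers pair the sorted fractions: deviations of same-numbered Eo− and Eo+ libraries from their group means correlated at 0.634, 0.311, 0.372 and 0.408 (replicates 1, 2, 5 and 6). A block fitted on the 8 sorted libraries was added after the data were seen. Its value, and for comparisons with ESCs that of the block over all 12 libraries, stands beside a result of the 10 genes or a count of a list only where it changes the call or moves the count by over 1.5 times. Replicates are differentiation sets of 1 reporter line, so p-values measure the spread between these sets. At the counting floor of 3 counts, a library's level was 0.00354 to 0.00467 CPM, which covers counting error only.

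The 10 genes and the gene lists were chosen with earlier results of these data known. List genes were named by a rule (up to 4 per list and comparison, called, with libraries that did not overlap, a mean of at least 1 CPM in a group, and the largest change, plus any partner, paralog, ligand or marker set beside one of the 10 genes). Which of the latter to name was chosen after their values were seen, among them Flt1, Lyl1, Erg, Cdh5, Tie1, Itga2b, Kit, Bmp4, Hhex, Hbb-bh1 and Ttr. Genes most like each of the 10 were the 3 loci of highest Pearson correlation over the 12 libraries. They were taken from loci outside the 10, with a gene symbol and a mean of at least 1 CPM in a group. No file of other samples was used.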

Additional observations from a re-analysis of the deposited data

Results flagged for a closer look

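In 6 of 30 groups of 4 libraries, 1 per gene and group, a single library lay farther from the rest than Dixon's critical value allows, where chance flags about 1 in 20 groups (1.5 of 30). All 6 were replicate 1 of a day 3 fraction, that is 2 libraries of 1 differentiation set. That replicate 1 differs was known when the genes were chosen, and the groups share libraries, so that the number of such values is a description and adds no support. In Eo−, Gata1 was at 7.64 CPM, beside 0.895 to 1.24 CPM in replicates 2, 5 and 6. Runx1 was at 12.2 CPM there, beside 1.86 to 2.35 CPM, and Fli1 at 7.54 CPM, beside 0.921 to 1.94 CPM. Gfi1b was at 5.34 CPM, beside 0.376 to 0.735 CPM, and Klf1 at 1.93 CPM, beside 0.422 to 0.493 CPM. In Eo+, Gfi1b was at 4.05 CPM in replicate 1, beside 0.272 to 0.900 CPM in the others. The cause was not tested.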

How the results depend on the processing

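The number of the 10 genes called (7, 5 and 6 in Eo+ vs ESC, Eo− vs ESC and Eo+ vs Eo−) stayed within 1.5 times under all alternatives run. Leaving out 1 library gave 5 to 10, 4 to 6 and 4 to 7, where 68.9% to 71.8%, 57.1% to 63.1% and 41.7% to 49.3% of all loci were called. The stricter filter of 1 CPM in 4 libraries left 8 of the 10 genes (not Gfi1b and Klf1) and gave 5, 4 and 5, where 72.1%, 61.9% and 47.6% of all loci were called. Of the log2 fold changes of single genes, 619 kept direction and call over the alternatives, 33 lost a call, 27 gained one and 15 changed sign. All that changed sign were small and not called. Runx1 in Eo− vs ESC (-0.12) was 0.28 by edgeR, 0.23 by DESeq2 and 0.15 with the replicate block over all 12 libraries, and -0.78 to 0.14 without single libraries. Klf1 in Eo− vs ESC (0.20) was -0.04 with sample quality weights, -0.29 without replicate 1 of all groups and -0.33 to 0.42 without single libraries. Gata1 in Eo+ vs Eo− (0.49) ranged from -0.03 to 1.23 without single libraries. Gfi1b in Eo+ vs Eo− (-0.06) was 0.06 without replicate 1 of all groups and ranged from -0.79 to 0.80 without single libraries. The cause was not tested. Same-numbered ESC and day 3 libraries did not deviate together in every set (correlations of -0.125 to 0.432), and the replicate block over all 12 libraries called 10, 7 and 8 genes, where 74.8%, 66.1% and 53.3% of all loci were called. The block on the sorted libraries alone called 8 (57.2% of all loci), adding Runx1 and Fli1, and changed no other call of the 10 genes in Eo+ vs Eo−.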
